A study of Homo sapiens with 8 samples.

Results

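HCC827 is a human lung adenocarcinoma line that carries an activating EGFR mutation, and gefitinib is a small molecule that blocks the EGFR kinase. The values described here come from 2 of the 8 arrays of the study, namely HCC827 grown flat on dishes (2D culture), 1 array labelled control and 1 labelled gefitinib. Both cultures were started from 200000 cells on dishes of 21 cm2 and kept for 7 days. The control received no inhibitor, and gefitinib was given at 1 µM. A start after 4 days is stated in a protocol sentence that names 3D culture and was read as the 2D start; how long the flat cultures stayed in the drug is not stated. The other 6 arrays were the same pair of treatments in HCC827 on a 3D collagen scaffold and in A549, a lung cancer line without an activating EGFR mutation, in both cultures. In the 3D cultures 1 µM gefitinib was present for the last 3 of 14 days. Each condition had 1 array, so no value below has a replicate error and no test between conditions could be made.

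The members are all genes of this pair of arrays. With 1 probe set per gene, the one with the highest mean over the 8 arrays, 18244 genes were measured, and 11926 were kept because their level was above the array's median in at least 2 of the 8 arrays. A level is the deposited log2 signal. A difference is the level in the array labelled gefitinib minus the level in the array labelled control, and 1 on this scale is 2-fold. Levels of different genes come from different probe sets and are not set against each other. In such bulk RNA, fewer cells that express a gene and less of its RNA per cell cannot be told apart.

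EGFR is a receptor tyrosine kinase that signals through RAS to the kinase ERK and through PI3K to AKT. ERK drives transcription of ETS factors, cyclin D1 and of its own inhibitors, the DUSP phosphatases and the SPRY and SPRED proteins, so transcripts of these inhibitors are widely read as a gauge of ERK activity. In EGFR-mutant lung cancer lines a blocked receptor is known to lower them and to stop cells in G1. In these 2 arrays 9 of 11 kept genes of such inhibitors were instead above 0 under the gefitinib label, 4 of them by 2-fold or more. SPRY2 among the 9 was level (0.004), and DUSP1 was lower (-1.74). The 2 labels may be exchanged. All differences are therefore given by label, and none of them is a direction of the drug's effect.

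Line markers were read first; since they were chosen on these arrays, they are a description and no independent check of the labels. Of 11 genes that mark HCC827 against A549 11 were above the array median in each array, with a mean level of 11.77 in the control-labelled and 11.78 in the gefitinib-labelled array. Of 9 genes that mark A549, none was above the median in the first and 1, AKR1B10, in the second, with mean levels of 6.74 in both. Of 5 endothelial markers 0 were above the median in either array, with mean levels of 6.91 and 6.86; 1 of 7 fibroblast markers, LUM (9.93 and 8.47), and 1 of 6 immune markers, CD68 (8.82 and 9.93), were above it in each. The signal of actin probe sets at the 3' end minus the 5' end, a gauge of RNA length, was -0.09 and -0.10. Spiked polyadenylated control RNAs read 8.33 in the control-labelled and 7.85 in the gefitinib-labelled array, whereas the same spikes differed by -0.002 in the A549 2D pair; the part of this in the results was not tested.

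The 2 arrays differed far more widely than the A549 2D arrays did. The standard deviation of the difference over the 11926 genes was 0.433, against 0.165 in the A549 2D pair, a ratio of 2.63. Within 10 groups of the genes ordered by mean level that ratio lay between 2.29 and 2.97. At 2-fold or more, 281 genes were higher in the array labelled gefitinib (2.36% of those kept) and 193 were lower (1.62%). The median difference over all genes was -0.05, and 41.8% of all genes were above 0. In a short list, none past 2-fold is therefore near the share over all genes. In the A549 2D pair 1 gene was higher (0.00839%), CCDC80, and 2 were lower (0.0168%), TFF1 and MUC5B. At 4-fold or more, HCC827 had 44 genes higher and 11 lower. Against the central 99% range of the A549 2D difference, from -0.44 to 0.53, the HCC827 difference was above the range for 784 genes (6.57%) and below it for 1212 (10.2%), so the side with more genes depended on the limit used. The genes just inside the 2-fold limit were MCM10 and RGS17 (1.00 each) on one side and ISG15 (-1.001) and EPSTI1 (-1.002) on the other. Just outside it lay ARHGEF39 and ACAT2 (0.99 each), FADS3 (-0.996) and WDR26 (-0.99).

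**Figure D1:**
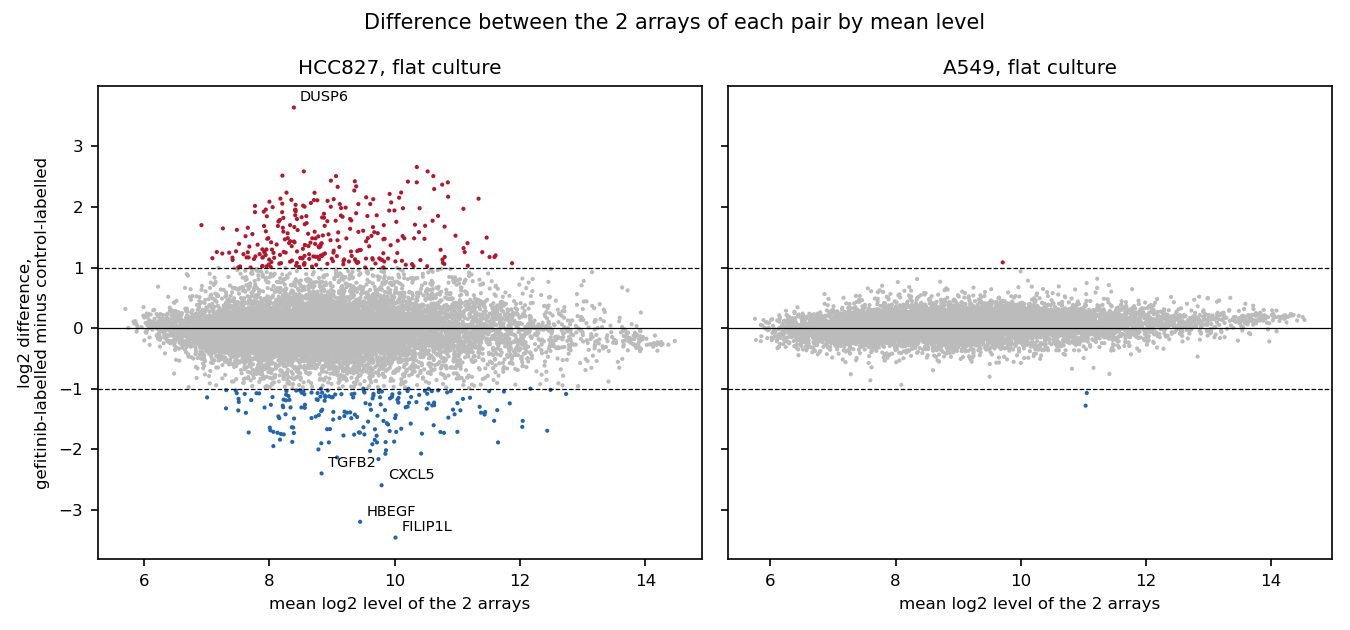
Difference between the array labelled gefitinib and the array labelled control (log2, y axis) against the mean log2 level of the 2 arrays (x axis) for 11926 genes, in HCC827 and in A549 flat culture. Dashed lines mark 2-fold; 281 genes lie above and 193 below in HCC827, against 1 and 2 in A549.

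On the higher side, DUSP6, the cytoplasmic phosphatase that switches off ERK, read 6.57 in the control-labelled array and 10.21 in the gefitinib-labelled array, a difference of 3.64 or 12.5-fold. HMGA2, an architectural chromatin protein, read 9.23 and 11.82 (2.59). CCND1, the cyclin that opens G1, read 9.36 and 11.87 (2.51). The ETS factor ETV5 and the membrane protein EMP1 belonged to the same 12, and the other 7 were genes of the dividing cell: KIF2C, NEK2, FAM83D, DLGAP5, TOP2A, CDC20 and RRM2, with differences from 2.41 to 2.66. DUSP6 thus stood below the array median under the control label and above it under the gefitinib label.

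On the lower side, FILIP1L, an inhibitor of cell migration, read 11.74 and 8.28, a difference of -3.46 or 11.0-fold. HBEGF, a ligand of EGFR, read 11.05 and 7.85 (-3.20). The neutrophil chemokine CXCL5 read 11.09 and 8.49 (-2.60), and the growth factor TGFB2 10.04 and 7.63 (-2.40). The other 8 included the endothelins EDN1 (-2.01) and EDN2 (-2.02), the matrix proteins OLFML2A (-2.03) and COL12A1 (-1.95) and the tight junction claudin CLDN1 (-2.07). Beside these stood ID3, an inhibitor of differentiation factors (-2.17), and the cyclin-dependent kinase inhibitors CDKN1C (-2.14) and CDKN2B (-2.08).

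**Figure D2:**
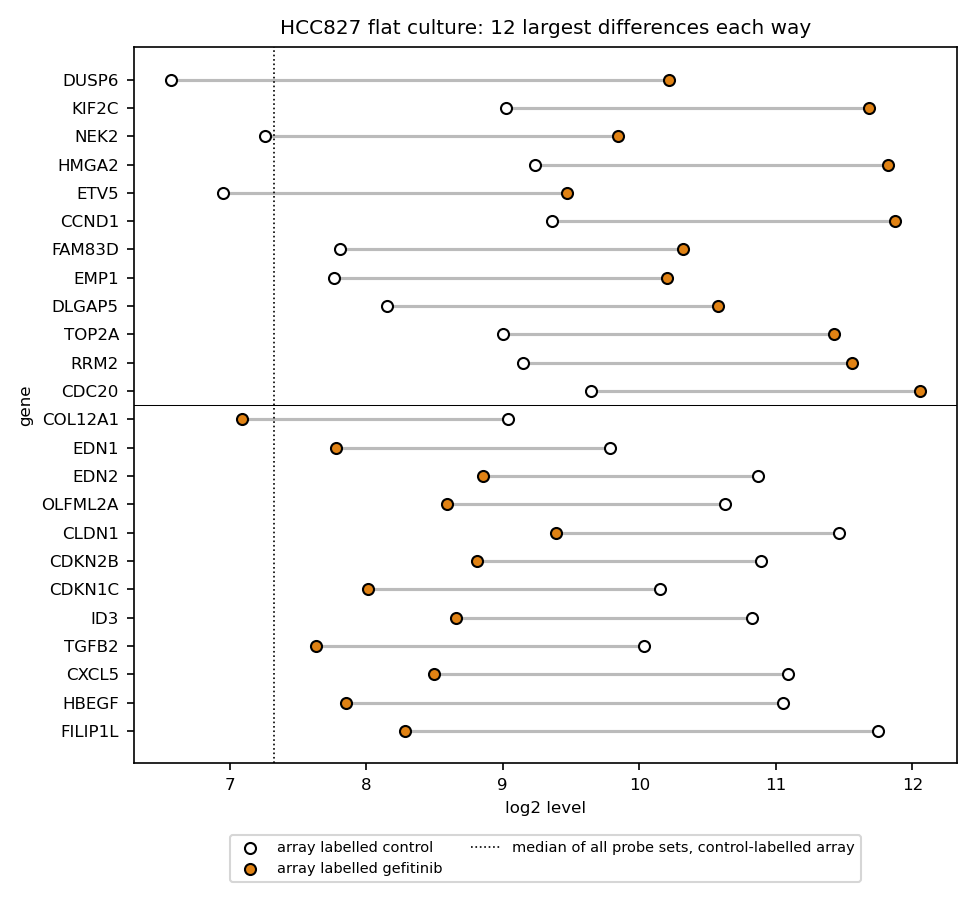
Log2 level (x axis) of the 12 genes with the largest difference each way (y axis) in the HCC827 flat culture arrays labelled control (open) and gefitinib (filled); the dotted line is the median of all probe sets in the control-labelled array. DUSP6 lies farthest apart among the genes higher under the gefitinib label, from 6.57 to 10.21, and FILIP1L among those lower, from 11.74 to 8.28.

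Among 13 ERK feedback inhibitors, 11 were kept (DUSP2 and DUSP7 were not), 4 were higher by 2-fold or more and 1 was lower, with a median of 0.51 against -0.05 over all genes. Beside DUSP6, the nuclear phosphatase DUSP5 read 7.62 and 9.05 (1.44). The RAF-binding inhibitors SPRED2 (8.17 and 9.72, 1.55) and SPRED1 (7.34 and 8.55, 1.21) were higher too, but both calls were lost in an alternative setting (0.97 and 0.87). DUSP4, another nuclear ERK phosphatase, read 7.80 and 8.31 (0.51), SPRY4 6.68 and 7.29 (0.61), and SPRY2 8.53 in both arrays. DUSP1, a phosphatase that also acts on JNK and p38, went the other way, at 11.31 and 9.56 (-1.74), with all of its 4 probe sets below 0. The phosphatases of the list therefore did not share a direction. Over the 8 arrays of the study the lowest DUSP6 level was that of the control-labelled HCC827 2D array, 6.57, and the highest that of the HCC827 3D control, 11.48.

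Of 17 transcription factors and immediate-early genes that ERK drives, 15 were kept, 4 were higher and none was lower by 2-fold or more, with a median of 0.66. EGR2 was not analysed here, and EGR3 was not kept. The PEA3-type ETS factors were ETV5 (6.95 and 9.47, 2.52), ETV1 (6.07 and 7.77, 1.70) and ETV4 (7.26 and 8.16, 0.90). ETV4 was short of 2-fold, and the 8 probe sets of ETV1 ranged from 0.21 to 1.70, so that its call was lost in an alternative setting (0.64). EGR1, a zinc finger factor induced within minutes of growth factor signalling, read 9.37 and 10.89 (1.52), PHLDA1 8.82 and 10.49 (1.67), and the AP-1 member FOSL1 7.76 and 8.75 (0.99). The general stress and growth factors of the list stood elsewhere: FOS read 9.59 and 9.93 (0.34), JUN 12.14 and 11.58 (-0.56), MYC 12.07 and 11.40 (-0.67) and IER3 11.70 and 11.01 (-0.69). AP-1 genes of the list thus lay on both sides of 0.

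Of 13 genes for ERBB receptors and their adaptors, 12 were kept and none reached 2-fold, with a median of -0.11. Over all genes 2.36% were higher and 1.62% lower by 2-fold or more, so none among 12 is near those shares. Past the central 99% range of the A549 2D difference, 2 of the 12 lay above and 2 below. Over all genes these shares were 6.57% and 10.2%. EGFR read 10.40 and 10.96 (0.56, 8 probe sets between 0.07 and 0.68), ERBB2 9.51 and 9.39 (-0.11) and ERBB3 9.83 and 9.72 (-0.11). ERRFI1, a cytosolic inhibitor of EGFR, read 11.32 and 11.97 (0.65), and the ubiquitin ligase CBLB 9.17 and 8.20 (-0.97). Among 6 kept EGFR family ligands, HBEGF was the one past 2-fold. EREG, the ligand epiregulin, read 9.70 and 10.59 (0.89), TGFA 7.997 and 8.44 (0.44) and NRG1 8.67 and 9.31 (0.63). BTC (0.06) and NRG4 (-0.03) were near 0, so HBEGF was the ligand farthest from 0. AREG was not analysed here.

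Of 21 genes of receptor tyrosine kinases and ligands that can stand in for EGFR, 15 were kept and 2 were lower by 2-fold or more, with a median of -0.07 whose sign turned with the choice of probe set. IGF1R, the receptor of insulin-like growth factor, read 10.16 and 8.92 (-1.24), but its 7 probe sets ranged from -1.24 to 0.01. GAS6, the ligand of AXL, read 8.82 and 7.72 (-1.10, and -0.96 in an alternative setting). MET, the receptor of hepatocyte growth factor, read 11.77 and 12.43 (0.66), AXL 6.63 and 7.14 (0.51) and MST1R 6.93 and 7.77 (0.84), all short of 2-fold.

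Many genes of the dividing cell lay on the higher side. The cell cycle engine itself was split: among 14 kept cyclins, kinases and inhibitors, CCND1 was higher, CDKN1C (10.15 and 8.01) and CDKN2B (10.89 and 8.81) were lower, and 11 lay within 2-fold. CDKN1B, the inhibitor p27, read 10.81 and 10.50 (-0.31), CDKN1A 9.83 and 9.59 (-0.24), CDK6 11.16 and 10.39 (-0.77) and CDK2 8.22 and 8.90 (0.68). The median of -0.17 came to 0.02 with the probe set of largest variance. CDKN2B and CDKN1C block kinases that act with the D-type and other G1 cyclins.

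For DNA replication, 42 of 44 listed genes were kept, 33 of them were higher by 2-fold or more and 0 lower, and 42 of 42 were above 0, with a median of 1.35. RRM2, the small subunit of the enzyme that makes deoxynucleotides, read 9.15 and 11.56 (2.41). E2F8, a repressor of the E2F family, read 6.96 and 9.05 (2.09), and CDC6, which loads the replicative helicase, 8.40 and 10.45 (2.05). The helicase subunit MCM2 read 9.21 and 10.34 (1.13), and TK1, thymidine kinase, 8.78 and 10.65 (1.86). The lowest members were the polymerase subunit POLD1 (0.25) and the cyclin CCNE1 (0.29). In the A549 2D pair the same genes lay between -0.33 and 0.24.

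Mitosis genes stood higher still. Of 46 listed genes 45 were kept, 44 were higher by 2-fold or more, and 45 of 45 were above 0, with a median of 1.93. KIF2C, a microtubule-depolymerising motor of the centromere, read 9.02 and 11.68 (2.66), and the centrosome kinase NEK2 7.26 and 9.85 (2.59). TOP2A, which untangles chromosomes, read 9.002 and 11.42 (2.42), and CDC20, the activator of the anaphase-promoting complex, 9.65 and 12.05 (2.41). MKI67, the proliferation antigen, read 7.44 and 9.39 (1.95), and the mitotic cyclin CCNB1 9.14 and 11.12 (1.98). The kinase PLK1, at 7.26 and 8.20 (0.94), was the 1 gene short of 2-fold. Together the 2 lists held 77 of the 281 genes on the higher side (27.4%) and none of the 193 on the lower side. The lists hold 42 and 45 of the 11926 kept genes, and 204 of the 281 higher genes lay outside them.

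**Figure D3:**
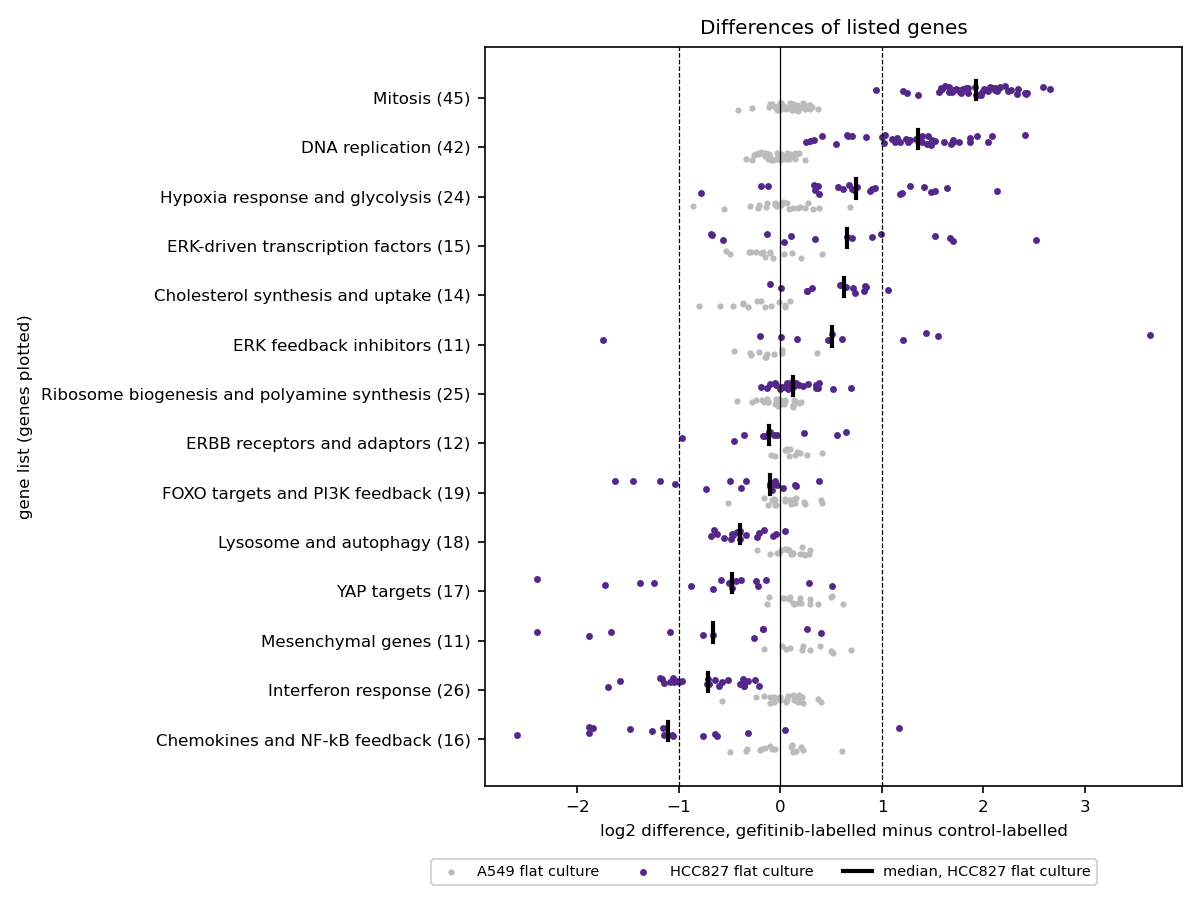
Difference between the arrays labelled gefitinib and control (log2, x axis) of each kept gene of 14 lists (y axis, with the number of genes), in HCC827 flat culture (upper points, bar at the median) and in A549 flat culture (lower points). Mitosis (median 1.93) and DNA replication (1.35) lie highest, and chemokines (-1.10) and interferon response (-0.71) lowest.

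Promoters of these lists are shown because the members differed together and are known to share control elements. The 250 bases before the transcription start were taken from RefSeq (GRCh38.p14), where 9807 of the 11926 kept genes had an entry, and both strands were searched. E2F sites were written as TTTCCCGC, TTTGGCGC or TTTCGCGC. One was present in 15 of 37 replication promoters (40.5%), in 2 of 38 mitosis promoters (5.26%) and in 3.96% of the 9807. The cell cycle homology region (TTTGAA or TTCGAA) together with the NF-Y box (CCAAT) was present in 19 of 38 mitosis promoters (50.0%), in 2 of 37 replication promoters (5.41%) and in 4.08% of the 9807. Among all genes higher by 2-fold or more with an entry, 229, the shares were 10.5% for E2F and 20.1% for the pair of elements; among 155 lower genes they were 0.0% and 3.87%. A match is a string of letters and no proof of binding. The replication genes with the largest difference that held an E2F string were UHRF1 (chr19:4909251-4909500, plus strand), which maintains DNA methylation, and DTL (chr1:212035498-212035747, plus strand), which marks CDT1 for destruction. Capitals mark the string, which on the minus strand reads as its reverse complement.
UHRF1: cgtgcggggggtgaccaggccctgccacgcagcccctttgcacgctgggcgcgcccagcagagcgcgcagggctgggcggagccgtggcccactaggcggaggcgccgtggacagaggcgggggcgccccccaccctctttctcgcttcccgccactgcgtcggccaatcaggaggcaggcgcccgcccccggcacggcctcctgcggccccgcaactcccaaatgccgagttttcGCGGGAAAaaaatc
DTL: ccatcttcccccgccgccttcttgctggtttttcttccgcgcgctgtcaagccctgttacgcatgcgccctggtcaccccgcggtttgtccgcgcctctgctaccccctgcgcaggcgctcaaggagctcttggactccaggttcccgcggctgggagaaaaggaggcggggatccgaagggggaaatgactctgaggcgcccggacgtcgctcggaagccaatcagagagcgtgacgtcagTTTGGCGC
UHRF1 read 8.94 and 10.88 (1.94) and DTL 7.48 and 9.35 (1.86). RRM2 (2.41) and CDC6 (2.05), with larger differences, held none of the E2F strings searched in this window. Other forms of the site were not searched, and the CDC6 window holds the near form TTTGGCGG.

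The mitosis genes with the largest difference that held both elements were DLGAP5 (chr14:55191586-55191835, minus strand), a spindle microtubule protein, TOP2A (chr17:40417897-40418146, minus strand) and CDC20 (chr1:43358731-43358980, plus strand). Capitals mark TTTGAA and CCAAT or their reverse complements TTCAAA and ATTGG.
DLGAP5: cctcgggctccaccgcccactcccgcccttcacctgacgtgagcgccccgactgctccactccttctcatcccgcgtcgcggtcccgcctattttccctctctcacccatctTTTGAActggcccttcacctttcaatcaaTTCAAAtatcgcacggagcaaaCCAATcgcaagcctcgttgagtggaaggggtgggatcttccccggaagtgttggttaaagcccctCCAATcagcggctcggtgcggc
TOP2A: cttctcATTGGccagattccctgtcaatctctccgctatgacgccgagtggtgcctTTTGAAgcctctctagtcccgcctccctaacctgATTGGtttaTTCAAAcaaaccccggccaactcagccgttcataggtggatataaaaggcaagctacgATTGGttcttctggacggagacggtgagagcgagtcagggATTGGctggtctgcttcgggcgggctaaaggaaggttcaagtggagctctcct
CDC20: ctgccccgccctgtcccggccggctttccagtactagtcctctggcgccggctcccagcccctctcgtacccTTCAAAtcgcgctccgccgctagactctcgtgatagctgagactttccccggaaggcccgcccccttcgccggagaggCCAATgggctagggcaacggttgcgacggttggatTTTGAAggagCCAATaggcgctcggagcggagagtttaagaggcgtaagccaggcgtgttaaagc
DLGAP5 read 8.15 and 10.58 (2.43). KIF2C, with the largest difference of the list, held neither element in this window.

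Metabolic genes followed in smaller steps. All 24 kept genes of the hypoxia response and glycolysis list gave a median of 0.74, with 8 higher by 2-fold or more and 0 lower. ANGPTL4, a secreted lipase inhibitor, read 7.11 and 9.25 (2.14), the stress gene NDRG1 8.47 and 10.11 (1.64), and the angiogenic factor VEGFA 10.21 and 11.73 (1.53). PDK1, which holds pyruvate back from mitochondria, read 7.55 and 9.04 (1.49), and PFKFB4, a regulator of glycolysis, 7.70 and 9.11 (1.42, and 0.82 in an alternative setting). The glycolytic enzymes at high level differed less, with PGK1 at 12.97 and 13.34 (0.37) and ENO1 at 12.63 and 13.19 (0.56). ADM, adrenomedullin, was the member farthest below 0, at 11.40 and 10.63 (-0.78).

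Of 14 kept genes of cholesterol synthesis and uptake, 13 were above 0 and 1 reached 2-fold; the median was 0.62, against -0.21 in the A549 2D pair. INSIG1, the sterol-sensing brake of the pathway, read 9.75 and 10.81 (1.06), FDPS 10.45 and 11.29 (0.85) and SQLE 8.91 and 9.74 (0.83). Among 9 fatty acid genes the desaturase SCD (10.77 and 12.03, 1.25) and the elongase ELOVL6 (8.18 and 9.36, 1.18) were higher by 2-fold or more, while FASN read 8.32 and 8.48 (0.16). None of 25 genes of ribosome biogenesis reached 2-fold (median 0.13; the methyltransferase FBL stood highest at 0.70). Cytosolic ribosomal proteins were nearly level: 27 of 28 lay below 0, none by 2-fold, with a median of -0.20, against 0.13 in the A549 2D pair.

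Inflammatory genes made up the clearest group on the lower side. Among 16 kept chemokines, cytokines and NF-kB feedback genes, 10 were lower and 1 was higher by 2-fold or more, with a median of -1.10. CXCL8, interleukin 8, read 10.66 and 8.77 (-1.89), CXCL1 10.80 and 8.91 (-1.88) and the cytokine IL6 9.09 and 7.25 (-1.84). The NF-kB inhibitor NFKBIA read 11.37 and 10.31 (-1.06), and the ubiquitin-editing brake TNFAIP3 10.05 and 8.99 (-1.06). IL1A was the exception at 6.83 and 7.995 (1.16). CXCL1, CXCL2 and CXCL3 are close copies of each other, so their probe sets may share signal. In the HCC827 3D pair the median of this list was on the same side, at -0.71.

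An NF-kB site was written as GGG, any pair of bases and TTTCC, a motif added after the data were seen. It was present in 9 of 13 promoters of this list (69.2%), against 2.06% of the 9807 kept genes with an entry. The list was named for NF-kB feedback, so this share is a description and no test of control by NF-kB. Around the string the promoters of CXCL1, CXCL2 and CXCL3 are alike, as are those of CXCL5 and CXCL6, so the 9 are not independent. The promoters with the largest differences that held the string were those of CXCL5 (chr4:73998678-73998927, minus strand) and CXCL1 (chr4:73869143-73869392, plus strand), with the string in capitals.
CXCL5: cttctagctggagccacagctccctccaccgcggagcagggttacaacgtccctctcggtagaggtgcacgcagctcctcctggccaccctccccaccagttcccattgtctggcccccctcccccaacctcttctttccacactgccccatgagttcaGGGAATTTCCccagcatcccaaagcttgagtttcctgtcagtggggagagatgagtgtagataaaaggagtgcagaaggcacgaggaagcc
CXCL1: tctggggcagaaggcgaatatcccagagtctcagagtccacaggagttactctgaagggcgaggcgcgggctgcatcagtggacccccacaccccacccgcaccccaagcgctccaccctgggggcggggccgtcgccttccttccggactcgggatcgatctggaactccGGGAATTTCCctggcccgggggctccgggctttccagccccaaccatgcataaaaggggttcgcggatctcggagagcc
The strings begin 91 and 79 bases before the start. Promoters of CXCL8 and ICAM1 held no such string in this window.

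Interferon-response genes lay on the lower side. Of 31 listed genes 26 were kept, 26 of 26 were below 0, and 10 were lower by 2-fold or more, with a median of -0.71 against 0.07 in the A549 2D pair. IFI44L, an interferon-induced protein, read 10.77 and 9.07 (-1.70), the antiviral GTPase MX1 11.05 and 9.47 (-1.58), and BST2, which tethers virus particles, 10.64 and 9.45 (-1.19, and -0.69 in an alternative setting). XAF1 read 10.23 and 9.07 (-1.16) and the mitochondrial protein IFI6 11.78 and 10.63 (-1.15). The smallest difference was that of OASL (-0.22). RSAD2, HERC5 and CMPK2 were not kept.

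The interferon-stimulated response element, written as TTTC, any pair of bases and TTTC again and also added after the data were seen, was present in 12 of 20 promoters of this list, against 2.17% of the 9807. The list was made of interferon-response genes, so this share is a description and no test of control by interferon. The promoters of IFI44L (chr1:78620198-78620447, plus strand) and IFI6 (chr1:27672193-27672442, minus strand) held the element 2 and 3 times, each time on the minus strand, where it reads GAAA, the pair and GAAA.
IFI44L: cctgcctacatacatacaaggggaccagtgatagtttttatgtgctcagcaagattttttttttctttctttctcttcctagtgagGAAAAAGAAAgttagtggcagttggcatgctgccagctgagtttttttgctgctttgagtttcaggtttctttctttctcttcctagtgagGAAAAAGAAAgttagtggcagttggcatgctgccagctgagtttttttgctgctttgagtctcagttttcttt
IFI6: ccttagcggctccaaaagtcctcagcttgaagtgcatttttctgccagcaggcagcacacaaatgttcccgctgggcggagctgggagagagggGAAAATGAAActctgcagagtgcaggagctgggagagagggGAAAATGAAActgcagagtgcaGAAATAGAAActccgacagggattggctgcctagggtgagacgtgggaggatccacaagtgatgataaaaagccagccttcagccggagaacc
MX1 and XAF1 held none in this window.

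Antigen presentation by MHC class I, which interferon also feeds, differed less. None of its 16 kept genes reached 2-fold, and the median was -0.20. The peptide loader TAPBP read 11.29 and 10.63 (-0.66), the transporter TAP1 9.85 and 9.20 (-0.65) and B2M, the light chain of class I molecules, 13.89 and 13.38 (-0.51), while TAP2 read 9.95 and 10.32 (0.37). Of 8 kept MHC class II genes 8 lay below 0, none by 2-fold, with a median of -0.14. The median of these genes was also -0.14 in the A549 2D pair, -0.12 in A549 3D and -0.10 in HCC827 3D. Their median levels, 7.46 and 7.23, lay near the array medians of 7.33 and 7.31.

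Mesenchymal and matrix genes were lower in part. Of 11 kept genes, 4 were lower by 2-fold or more, with a median of -0.67 that moved between -0.84 and -0.17 with the choice of probe set and filter. VIM, the intermediate filament vimentin, read 12.60 and 10.71 (-1.89, with its other probe set at -2.21). The transcription factor SNAI2 read 10.52 and 8.85 (-1.67), TGFB2 10.04 and 7.63, and fibronectin, FN1, 13.28 and 12.19 (-1.09, and -0.84 in an alternative setting). The matrix protein TGFBI stood on the other side at 13.07 and 13.47 (0.40). LUM, the fibroblast marker above the array median in both arrays, was lower too (-1.45). COL1A1 read 7.07 and 6.93, and COL1A2, COL3A1, DCN, PDGFRB and THY1 were not above the median in 2 arrays; a part of other cells in this group was not tested.

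YAP, the effector of the Hippo pathway, drives a set of which 17 of 19 genes were kept; 4 were lower by 2-fold or more, and the median was -0.48, against 0.18 in the A549 2D pair. Beside TGFB2, GADD45B read 11.65 and 9.92 (-1.73), the scaffold AMOTL2 9.72 and 8.33 (-1.39, and -0.81 in an alternative setting), AJUBA 11.62 and 10.38 (-1.24) and CCN1 13.85 and 12.97 (-0.88). ANKRD1, a widely used YAP target, read 9.84 and 6.68, a difference of -3.16, but was above the array median in that control alone and so was left out of all counts. ID proteins are targets of BMP signalling. In the list of ID proteins and BMP feedback genes, 2 of 7 were lower by 2-fold or more: ID3 (10.82 and 8.66) and ID2 (9.48 and 8.28, -1.20). ID1 read 11.07 and 10.56 (-0.51) and ID4 7.25 and 6.43 (-0.82).

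None of 23 epithelial junction and splicing genes reached 2-fold, and the median was 0.21. The epithelial cadherin CDH1 read 12.57 and 12.37 (-0.20), the keratin KRT8 12.69 and 13.61 (0.92) and the claudin CLDN4 12.79 and 11.86 (-0.93). Of the lung lineage list, NKX2-1, the master factor of lung epithelium, read 10.88 and 11.23 (0.34), and 2 of 16 kept genes were lower by 2-fold or more: HOPX (8.95 and 7.92, -1.03) and LAMP3 (9.52 and 8.39, -1.13). Both of these calls were lost in an alternative setting (-0.89 and -0.73). Among 17 airway secretory genes AGR2, a folding enzyme of mucins, was higher (8.17 and 9.95, 1.77), but its 4 probe sets ranged from -0.06 to 1.77.

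Surface and protease genes showed single large members and no common side. ITGA2, the collagen-binding integrin chain, read 8.16 and 10.14 (1.98), and ITGB6, part of a TGF-beta-activating integrin, 11.05 and 10.04 (-1.01, and -0.43 in an alternative setting), among 11 kept integrin and laminin genes whose median of 0.25 fell to -0.01 with the mean of probe sets. MMP9, a gelatinase, read 7.27 and 9.03 (1.76), whereas the matrilysin MMP7 read 9.78 and 7.88 (-1.90) and the protease inhibitor TIMP2 11.60 and 10.12 (-1.48). Targets of the aryl hydrocarbon receptor included CYP1B1 (10.32 and 8.68, -1.64) and CYP1A1 (8.31 and 7.12, -1.19), both enzymes that oxidise foreign compounds. The list of 9, which also holds drug transporters, had a median of -0.58, the value of the transporter ABCC1.

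Genes that PI3K signalling restrains through FOXO factors, listed together with PI3K feedback genes, lay mostly on the lower side. Of 19 kept genes, 4 were above 0, against 41.8% of all genes. By 2-fold or more, 4 were lower and none was higher, and the median of the list was -0.11. GADD45A, a damage and stress gene, read 12.85 and 11.22 (-1.63), the transcription factor KLF6 10.45 and 9.003 (-1.45), the kinase inhibitor PIK3IP1 8.92 and 7.73 (-1.19) and CITED2 11.12 and 10.07 (-1.04). The calls of PIK3IP1 and CITED2 were lost in an alternative setting (-0.74 and -0.82). IRS2, the insulin receptor substrate, read 7.43 and 7.34 (-0.09), TXNIP, a brake on glucose uptake, 11.26 and 11.16 (-0.10), and SESN3 was not kept. The median of the list thus lay close to that of all genes, with its lower tail set apart.

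None of 15 kept cell death genes of the BCL2 family reached 2-fold, which is near the shares over all genes (2.36% higher and 1.62% lower). Past the central 99% range of the A549 2D difference, 2 lay above and 1 below, against 6.57% and 10.2% of all genes. BCL2L11, the death inducer BIM that EGFR inhibitors are known to raise in EGFR-mutant cells, read 9.06 and 8.94 (-0.12), and its 14 probe sets ranged from -0.47 to 0.51. BBC3, the inducer PUMA, was farthest from 0, at 8.998 and 8.10 (-0.90). Among 17 p53 targets the 1 past 2-fold was TP53INP1, an autophagy and stress gene, at 10.94 and 9.27 (-1.66, and -0.93 in an alternative setting); the p53 antagonist MDM2 read 7.35 and 7.85 (0.49). Of 18 lysosome and autophagy genes 17 lay below 0, none by 2-fold, with a median of -0.40, against 0.10 in the A549 2D pair. MAP1LC3B, the autophagosome protein LC3B, read 10.81 and 10.13 (-0.68), and the cargo receptor SQSTM1 12.68 and 12.21 (-0.47).

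Stress programmes showed isolated members. DDIT4, an inhibitor of the kinase mTORC1, read 9.77 and 11.94 (2.17) and ATF3, a stress-induced factor, 9.26 and 7.53 (-1.73, and -0.94 in an alternative setting), among 19 amino acid stress genes with a median of -0.11. None of 10 cytosolic heat shock genes and none of 10 genes of the endoplasmic reticulum's unfolded protein response reached 2-fold; HSPB1 was farthest from 0 at 13.15 and 12.21 (-0.95). Of 18 targets of NRF2, the oxidative stress factor, AKR1B10 was higher (7.31 and 8.48, 1.17), the median was 0.04, and HMOX1, haem oxygenase, read 9.39 and 8.74 (-0.65).

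The HCC827 3D pair shares no array with the 2D pair, and its labels ran the other way for the growth genes. Over 11926 genes the 2 differences correlated at Pearson's r = -0.555 and Spearman's rho = -0.436, while those of the A549 2D and 3D pairs correlated at r = 0.237. These are descriptions across genes, which are not independent, and the 2 values of each gene share its probe set and the cell line. The 3D arrays also differed in technical signals, with actin 3' minus 5' signals of 2.34 and 2.64 against -0.09 and -0.10 in 2D. Spiked polyadenylated control RNAs read 11.21 and 11.58 in HCC827 3D, against 8.33 and 7.85 in 2D. In A549 these spikes read 10.96 and 10.90 in 3D, against 8.30 in both 2D arrays. The part of these differences in the result was not tested. In 3D, 95 genes were higher (0.797%) and 376 lower (3.15%) by 2-fold or more. Of the 281 genes higher under the gefitinib label in 2D, 180 were lower by 2-fold or more in 3D, which is 64.1% of the 2D list and 47.9% of the 3D list, and 280 were below 0 there. No gene was higher by 2-fold or more in both.

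Over all genes 35.1% were above 0 in the 3D pair. Of 193 genes lower in 2D, 26 were higher by 2-fold or more in 3D (13.5% of the 2D list, 27.4% of the 3D list), 136 were above 0 and 57 below 0 there. HBEGF differed by 1.48 in 3D, FILIP1L by 1.78, CDKN2B by 2.04 and CDKN1C by 1.84. By contrast 8 genes were lower by 2-fold or more under the gefitinib label in both cultures: CXCL8, CXCL6, CXCL2, ICAM1, SAA1, SGK1, TCIM and MAF. This was 4.1% of the 2D list and 2.1% of the 3D list, near the 3.15% of all genes lower in 3D. Of these 8 genes, 4 belong to the chemokine and NF-kB list and SAA1 is an acute-phase protein. CXCL8 was lower by 1.89 in 2D and 1.42 in 3D on the log2 scale. Interferon genes had a median of -0.07 in 3D, against -0.71 in 2D.

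**Figure D4:**
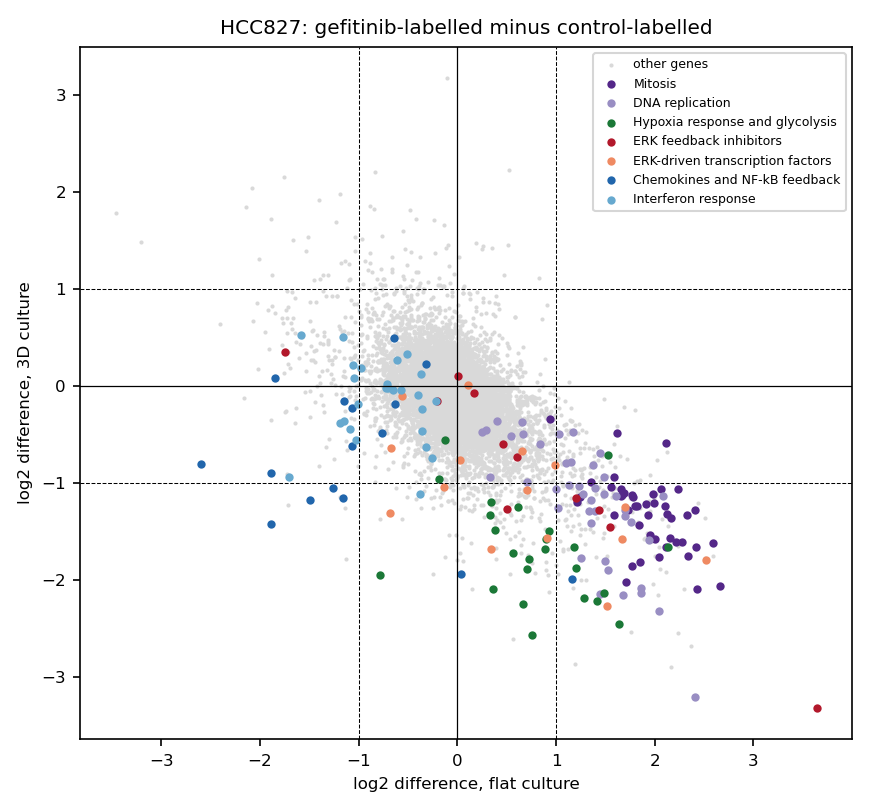
Difference between the arrays labelled gefitinib and control in HCC827 (log2) in flat culture (x axis) and in 3D culture (y axis) for 11926 genes; coloured points are the members of 7 lists and dashed lines mark 2-fold. Mitosis and replication genes lie at lower right (medians 1.93 and 1.35 against -1.28 and -1.11), whereas most chemokine genes lie to the left and below 0 (medians -1.10 and -0.71).

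Several probe sets of a gene give a partial check of single values, although they read the same RNA and are no replicates. Among the 281 higher genes, 198 had several probe sets; for 182 all were above 0, and for 76 all reached 2-fold. Among the 193 lower genes, 161 had several, 140 had all below 0 and 38 had all at 2-fold or more. DUSP6 (4 probe sets, 2.74 to 3.83), CCND1 (4, 1.78 to 2.51), TOP2A (3, 2.06 to 2.61) and CXCL5 (3, -2.60 to -2.28) were the same in kind across their probe sets. HMGA2 was not: 6 probe sets ranged from 0.02 to 2.59. FILIP1L ranged from -3.46 to 0.27 over 7, and COL12A1 from -1.95 to 0.04 over 4.

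**Figure D5:**
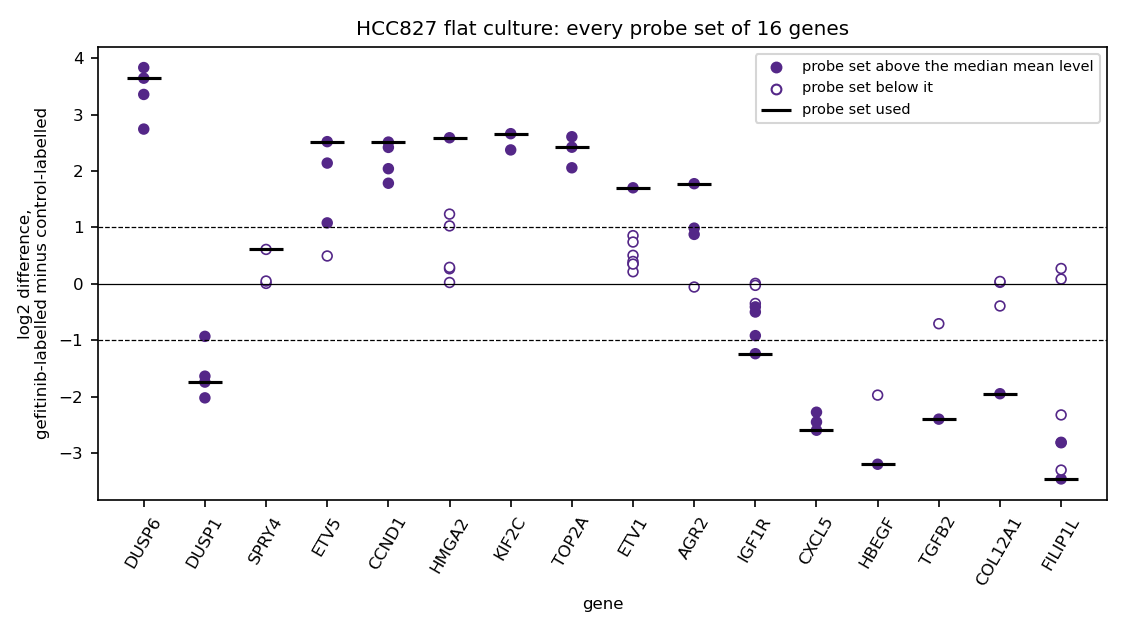
Difference (log2, y axis) of every probe set of 16 genes (x axis) in HCC827 flat culture; filled points are probe sets above the median mean level, open points those below it, and the bar marks the probe set used. The 4 probe sets of DUSP6 lie between 2.74 and 3.83, whereas the 7 of FILIP1L spread from -3.46 to 0.27.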

How the data were processed

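Total RNA of 8 cell line samples was read on 3' expression arrays. The authors deposited log2 values; the submitters' processing notes name RMA (background correction, quantile normalization and probe summary) and R 3.2.1, and no genome build. RMA fits all arrays to 1 distribution, so a shift common to most genes would not show. Of 49495 probe sets, the 45284 with a single symbol in the platform annotation entered the analysis; 1333 had more than 1 symbol, 2878 had no entry there, and 45214 matched RefSeq symbols.

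Differences between single arrays were computed in Python 3.11.15 with pandas 2.3.3, and cyclic loess with limma 3.58.1 in R 4.3.3. The number of arrays limits the precision: there is no replicate and no test. Calls need 2-fold, and the script was tested on simulated data. Members and the 39 gene lists were chosen with earlier results of these data known. Named genes are the 12 largest differences each way, up to 5 members of each list with the largest difference and a fixed set of EGFR and cell cycle genes. Members named to show the other end of a list, and genes of symbol families, were chosen after their values were seen. Alternatives changed the probe set, the filter, the scaling and the threshold.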

Additional observations from a re-analysis of the deposited data

Results flagged for a closer look

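For 5 gene lists the median difference lay on opposite sides of 0 in the HCC827 2D and 3D pairs, by 0.5 or more in each, and every one of these lists was higher under the gefitinib label in 2D and lower in 3D. The difference between the pairs was not tested, since each pair is 1 array against 1 array. Mitosis genes had a median of 1.93 in 2D and -1.28 in 3D. DNA replication genes stood at 1.35 and -1.11. The hypoxia response and glycolysis list had 0.74 in 2D and -1.70 in 3D. ERK-driven transcription factors had 0.66 and -1.07, and ERK feedback inhibitors 0.51 and -0.74. The 2D medians of these last lists fell short of 0.5 under alternative settings, to as little as 0.39 for the factors and 0.47 for the inhibitors. The lists were chosen with earlier results of these data known, and genes of one list are not independent.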

How the results depend on the processing

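The counts of genes higher (281) and lower (193) by 2-fold or more depended most on the limit. Outside the central 99% range of the A549 2D difference there were 784 higher and 1212 lower genes, and beyond 3 SD of the A549 2D difference at the same level 879 and 1033, so the share on the higher side went from 59.3% to 39.3% and 46.0%. With the mean of a gene's probe sets, 224 were higher and 108 lower. The other 5 settings of probe set, filter and scaling kept both counts within 1.5 times (207 to 312 higher, 145 to 202 lower). Cyclic loess moved no list median and no named gene by more than the A549 2D standard deviation of 0.165. Exchanging the 2 labels would turn every sign and swap the counts.

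List medians that moved by more than that spread did so as follows. With the mean of probe sets, ERK-driven factors stood at 0.39, chemokines at -0.78 and mesenchymal genes at -0.38. In that setting integrins stood at -0.0052, and the list of aryl hydrocarbon receptor targets and drug transporters at -0.38. The probe set of largest variance gave 0.0191 for cyclins and their inhibitors, 0.22 for fatty acid synthesis and -0.84 for mesenchymal genes. Without a filter, EGFR ligands stood at 0.0429 and mesenchymal genes at -0.22. With the filter on the 6 other arrays, mesenchymal genes stood at -0.17, p53 targets at -0.24 and the HCC827 markers at 0.0706. The cause was not tested. Mitosis (1.85 to 2.04) and DNA replication (1.23 to 1.42) stayed within that spread under all 6 settings. Of 86 named genes past 2-fold, 86 kept their sign and 65 stayed past 2-fold under the 3 settings run on them; HMGA2 (0.90), ETV1 (0.64), IGF1R (-0.41) and COL12A1 (-0.57) were among the 21 that did not.

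With 1 array per condition, leaving out a replicate was not possible. No paired analysis was possible because the groups compared share fewer than 2 replicate numbers.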

Other observations

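Gene families read from their symbols, a choice made after the data were seen, add to the lists. The CXC chemokines CXCL10 (8.43 and 6.66) and CXCL11 (8.55 and 6.57) are induced by interferon and were not kept, being above the array median in fewer than 2 of the 8 arrays, and neither was NPPB, a natriuretic peptide (8.76 and 6.72). The guanylate-binding proteins GBP1 (11.68 and 10.51) and GBP2 (9.96 and 9.08), also induced by interferon, differed by -1.17 and -0.88. Among 21 collagens, 18 were below 0 and 3 above, against 41.8% of all genes above 0. The basement membrane chains COL4A1 (9.51 and 8.07) and COL4A2 (10.53 and 9.39) differed by -1.44 and -1.14, against 0.81 and 0.67 in the A549 2D pair.

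Mitochondrial and cytosolic ribosomal proteins lay on different sides of 0: 64 of 76 mitochondrial members were above 0, with a median of 0.17, whereas 27 of 28 cytosolic ones were below it. Over all genes 41.8% were above 0. No member of either group reached 2-fold. Histones were split, with H4C3 at 10.27 and 12.41 (2.14) and H2AC20 at 6.84 and 8.10 (1.27), but H2AC6 at 9.07 and 8.02 (-1.04) and H2BC12 at 11.70 and 10.77 (-0.93). TUBA1A, an alpha-tubulin, read 13.28 and 11.59 (-1.70). Of 11 S100 proteins 10 were above 0, led by S100A9 (7.32 and 8.74, 1.42) and S100A2 (8.79 and 10.08, 1.29), and their median was 0.32 in 2D and -0.84 in 3D. No kept member of 243 solute carriers was higher by 2-fold or more, against 2.36% of all genes. Only 1, SLC7A7, was lower (-1.07), against 1.62% of all genes.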
